A study of Mus musculus with 6 samples.

Results

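The genes described here are 50 genes of the early secretory pathway: the machinery that brings newly made proteins into the endoplasmic reticulum (ER), trims and glycosylates them there, and moves them between the ER and the Golgi. They were listed by name as members of 9 complexes or families, with earlier results of these data known, and all 50 were found among the 24908 genes of the deposited table. The values are FPKM, fragments per kilobase of a transcript and per size of the library. Averaged over the libraries, all 50 reached 1 FPKM, the minimum at which 12361 genes were compared.

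A protein that is to be secreted carries a signal sequence, which the signal recognition particle binds as it leaves the ribosome, and its receptor brings the ribosome to the Sec61 channel in the ER membrane. Signal peptidase then removes the signal sequence, and oligosaccharyl transferase attaches glycans to asparagines of the growing chain. COPII coats bud vesicles that leave the ER for the Golgi, COPI coats return material from the Golgi, TMED proteins select cargo in these vesicles, and KDEL receptors retrieve escaped ER proteins from the Golgi. The luminal cells of the prostate secrete the fluid of the gland and use this pathway heavily.

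Bulk RNA-seq was analysed from 3 prostate lobes, ventral (VP), dorsolateral (DLP) and anterior (AP), of 1 wild-type mouse (WT) and of 1 littermate heterozygous for the Hi-MYC transgene (MYC), both 12 weeks old, of the FVB strain and fed the same purified diet. The transgene is a human c-MYC under the ARR2Pb promoter, a modified probasin promoter that acts in prostate epithelium. Each lobe was dissociated to a cell suspension, from which 1 library was made, so that there are 6 libraries. No group has a replicate, so no p-value was computed, every value is that of 1 library, and the effect of the genotype and the effect of the individual mouse cannot be told apart. The 3 lobes of a genotype come from the same mouse, and the comparisons between lobes and between genotypes share libraries.

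The depth, estimated from the steps in low FPKM values, ranged from 25.4 M reads in WT AP to 49.7 M in MYC AP, which gave each member between 227 and 21589 reads. The exact 95% interval of a ratio of 2 libraries reached a median of 0.0585 to 0.087 on the log2 scale to either side over the members. Such intervals cover counting error only and not the spread between mice. The row for MYC, whose reads may come from the mouse gene and the human transgene together, stood at 230.0, 200.6 and 226.4 FPKM in AP, DLP and VP of WT, and at 230.9, 586.1 and 1696 FPKM in the same lobes of MYC. The level was thus like that of WT in the AP, and higher in the DLP and the VP. The luminal keratin KRT8 was found at 387.9 FPKM or more in each library. In the VP, summed fibroblast markers stood at 641 FPKM in WT and 194 in MYC, and summed hematopoietic markers at 27.5 and 162 FPKM. In the DLP they were at 37.8 and 219 FPKM for hematopoietic cells and at 1255 and 671 FPKM for fibroblasts. The fibroblast sum follows DCN (1155 and 453.9 FPKM in the DLP), and 3 of the 5 fibroblast markers, COL1A1, COL1A2 and COL3A1, were higher in MYC DLP. In the AP the same 3 collagen genes were 4.12-fold, 2.65-fold and 3.79-fold higher in MYC. Seminal vesicle genes summed to 522 FPKM in MYC AP against at most 9.17 in the other 5 libraries. The part of these differences in the results was not tested, and in such bulk samples fewer cells of a type and less RNA per cell cannot be told apart.

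The first question was how the secretory machinery differs between the lobes of the WT mouse. The 50 genes together took 0.661% of all FPKM in WT AP, 0.891% in WT DLP and 1.03% in WT VP, and their median level was 38.1, 56.4 and 65.7 FPKM in the same order. The AP was the lowest of the 3 WT lobes for 47 of the 50 genes, whereas it was the lowest for 43.5% of all genes compared. The 3 exceptions were SEC24A, a COPII subunit, which was lowest in the DLP, and STT3B and SAR1A, which were lowest in the VP by a margin of 1.03-fold or less against the AP. The highest lobe was the VP for 32 genes (32.1% of all genes), the DLP for 17 (35.3%) and the AP for SEC24A alone (32.6%). These counts depend on the scale. With libraries scaled by the median of ratios, the VP was highest for 43 genes and the DLP for 6, and no share of all genes was computed. Relative to the keratins KRT8 and KRT18, the DLP was highest for 49 (55.4% of all genes) and the VP for 0 (0.987%). The AP was then lowest for 2 (2.64%). The median log2 difference was 0.66 between VP and AP, against -0.01 over all genes, and 0.51 between DLP and AP, against 0.10 over all genes. Between VP and DLP it was 0.09, against -0.13 over all genes.

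Of the 50 genes, 8 were at least 2-fold higher in WT VP than in WT AP (7.89% of all genes), namely SEC11C, KDELR3, COPB2, SEC13, SAR1B, SRP68, SPCS1 and TMED3. Between WT DLP and WT AP, 4 were at least 2-fold higher (3.85% of all genes), namely TMED3, SEC11C, KDELR3 and SEC61B, and between WT VP and WT DLP none was (2.63%). The counting interval excluded no difference for 48 genes between VP and AP, 49 between DLP and AP and 43 between VP and DLP. It was computed for the members only, so the share of all genes is not known. The sign of the VP to AP difference depends on the scale, and the place of the members among all genes does not. WT VP held 1292 FPKM of the luminal keratin KRT8 and 1611 of KRT18, against 399.9 and 548.7 in WT AP, while the luminal markers EPCAM and CD24A were lower in WT VP (274.1 and 297.9 FPKM) than in WT AP (324.8 and 434.7). Taking each level to the mean log2 level of the 2 keratins shifts each gene of a library alike. On that scale the median VP to AP difference was -0.97 for the members and -1.63 for all genes, 0.67 apart, and SEC11C at 0.53 and KDELR3 at 0.37 were the 2 of 50 higher in the VP (2.92% of all genes). The median DLP to AP difference was 0.47 on this scale, 0.42 above all genes, with 49 of 50 genes higher in the DLP (56.1% of all genes).

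**Figure D1:**
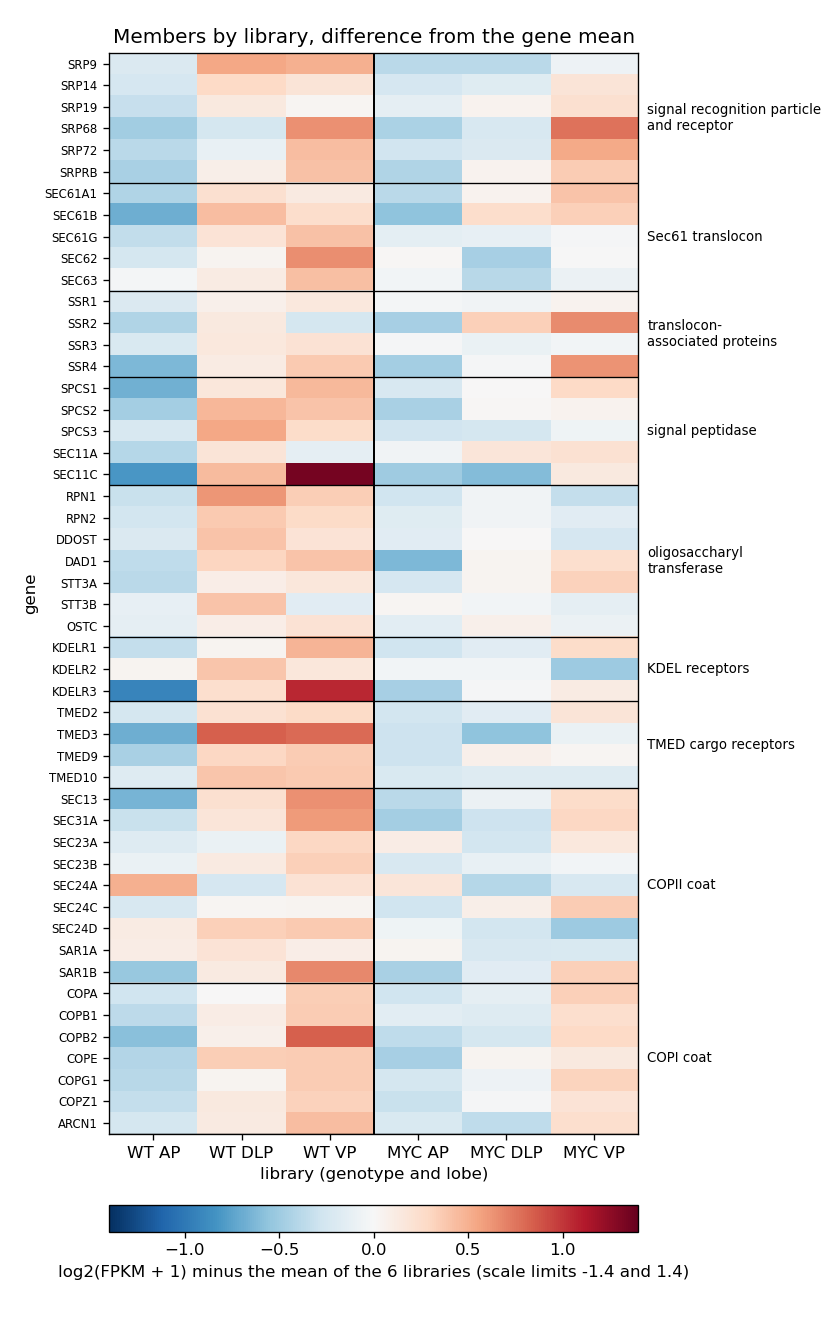
Level of each of the 50 genes (rows, grouped by complex) in each of the 6 libraries (columns), as log2(FPKM + 1) minus the mean of that gene over the 6 libraries; red is above the mean and blue below it. WT AP is the lowest WT column for 47 of 50 genes, and SEC11C and KDELR3 in WT VP are the darkest red cells.

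The second question was how the genes differed between the MYC and the WT mouse in each lobe. On the log2((FPKM + 1) of MYC / (FPKM + 1) of WT) scale, 17 of the 50 genes were below 0 in the AP (33.3% of all genes), 47 in the DLP (46.2%) and 39 in the VP (46.4%). Each of the 39 genes below 0 in the VP was also below 0 in the DLP, and 32% of all genes were below 0 in both lobes. Above 0 in the AP and below 0 in both other lobes were 24 of the 50, against 18.2% of all genes. Markers of smooth muscle showed the same order of signs: 5 of 5 were above 0 in the AP and none in the DLP or the VP, and their sum was 135, 252 and 193 FPKM in WT AP, DLP and VP and 229, 135 and 122 FPKM in MYC. Their part in the values of the 50 genes was not tested. The signal recognition subunit SRP68 was above 0 in each lobe, by at most 0.11. The median log2 ratio was 0.05 in the AP, -0.27 in the DLP and -0.23 in the VP, against 0.13, 0.03 and 0.04 over all genes. Relative to all genes, the members' median was thus -0.08, -0.31 and -0.27, and 31, 48 and 40 of the 50 genes lay below the median of all genes in AP, DLP and VP. The sign in the AP turns on the scaling, since bringing all genes to a median near 0 takes the members' AP median below it.

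The differences were small for single genes. In the AP no gene was 2-fold lower (0.599% of all genes) or 2-fold higher (2.05%) in MYC. In the DLP, SEC11C and TMED3 were at least 2-fold lower (2 of 50, against 3.39% of all genes), and none was 2-fold higher (6.46%). In the VP, SEC11C was at least 2-fold lower (1 of 50, against 5.95% of all genes), and none was 2-fold higher (6.88%). The counting interval excluded a ratio of 1 for 28, 44 and 45 of the 50 genes in AP, DLP and VP. Intervals were computed for the members only, so these counts have no share of all genes beside them. They reflect the read depth and do not set the members apart. KRT8 and KRT18 were 1.17-fold and 1.23-fold lower in MYC VP. Taken to them, the members' median in the VP was 0.03 and that of all genes 0.30. Above 0 were 26 of 50 members (71.1% of all genes). Such a scale shifts all genes of a library alike, so the members' -0.27 relative to all genes could not change. In the DLP the medians on that scale were -0.51 and -0.20, with none of the 50 genes above 0 (31.2% of all genes). In the AP they were 0.21 and 0.29, with 46 of 50 above 0 (83.3% of all genes).

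The AP stood less far below the other lobes in the MYC mouse, in FPKM as deposited. The 50 genes took 0.684%, 0.673% and 0.76% of all FPKM in AP, DLP and VP of this mouse. The AP was the lowest MYC lobe for 33 genes (39.9% of all genes), and 3 genes, SRP68, SSR2 and SSR4, were at least 2-fold higher in MYC VP than in MYC AP (8.98% of all genes). The median VP to AP difference was 0.43 in MYC and 0.66 in WT, and the median DLP to AP difference was 0.14 in MYC and 0.51 in WT. The median VP to DLP difference went the other way, at 0.27 in MYC and 0.09 in WT. The signed VP to AP difference was lower in MYC for 41 of the 50 genes, against 54% of all genes, and the DLP to AP difference for 45 of 50, against 56.7% of all genes. Regardless of sign, the difference was smaller in size in MYC for 36 genes between VP and AP (42.3% of all genes), for 42 between DLP and AP (45.9%) and for 22 between VP and DLP (39.2%). Taken to KRT8 and KRT18, the median VP to AP difference was -0.97 in WT and -1.10 in MYC, and the median DLP to AP difference was 0.47 in WT and -0.31 in MYC. Relative to all genes on the same scale, these were 0.67 and 0.44 between VP and AP, and 0.42 and 0.08 between DLP and AP.

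**Figure D2:**
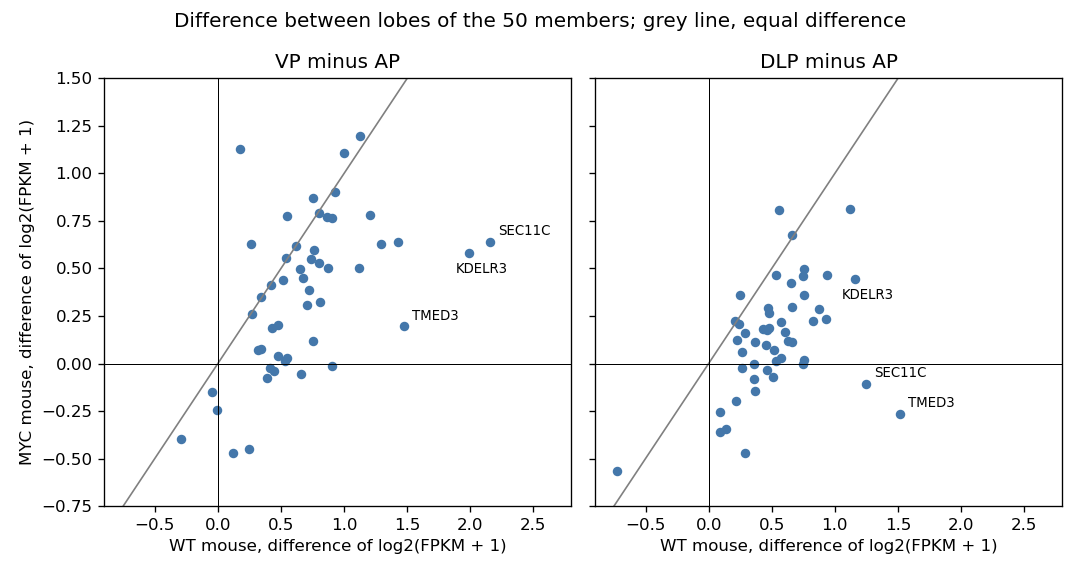
Difference between lobes in the MYC mouse (vertical axis) against the same difference in the WT mouse (horizontal axis), both of log2(FPKM + 1), for each of the 50 genes, with VP minus AP on the left and DLP minus AP on the right. Points below the grey line have a lower signed difference in MYC (41 of 50 on the left and 45 of 50 on the right), and SEC11C, KDELR3 and TMED3 are named.

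The promoters of these genes were read for 3 short motifs and 1 composite, chosen after the values above were seen. TGACGTGG is the core of an element to which the ER stress factors XBP1 and ATF6 bind, CACGTG is the E-box that MYC with its partner MAX binds, and ACGTG lies within both, so that a match to either is also a match to it. A table of RefSeq promoters (GRCm38.p6) was used, in which 40 of the 50 genes were matched, with 43 windows in all, from 250 bases before the transcription start to 50 after it. The 10 genes not matched in it were SRP19, SRP68, SEC61A1, SSR2, SPCS3, SEC11C, OSTC, KDELR2, TMED2 and ARCN1. Both strands were searched. TGACGTGG was found in 5 of the 43 windows (11.6%), against 0.676% of all 32851 windows of the same length. Those windows were not limited to the genes compared above, whereas each member is among these. The shares are therefore of unlike sets, and no share over expressed genes was computed. CACGTG was found in 4 (9.3%, against 7.15%), ACGTG in 25 (58.1%, against 19.6%), and the composite of CCAAT and CCACG 9 bases apart, a form of the ER stress element, in none (0.119% of all windows). A match is a description of the letters and not of binding. The stretches around TGACGTGG are shown because SEC24D, KDELR3 and COPB2 are the members of their families with the lowest VP ratio (below). They are written 5′ to 3′ in the direction of the gene, with the motif in capitals, which reads CCACGTCA where it lies on the opposite strand.
SEC24D (chr3:123267444-123267495, plus strand): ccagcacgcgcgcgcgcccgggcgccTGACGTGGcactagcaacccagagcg
KDELR3 (chr15:79516352-79516407, plus strand): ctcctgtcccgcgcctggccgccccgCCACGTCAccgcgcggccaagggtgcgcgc
COPB1 (chr7:114254681-114254734, minus strand): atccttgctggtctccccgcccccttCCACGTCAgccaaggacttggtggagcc
COPB2 (chr9:98563713-98563742, plus strand): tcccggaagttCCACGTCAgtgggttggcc
SEC23A (chr12:59011993-59012022, minus strand): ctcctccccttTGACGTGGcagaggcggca

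In KDELR3, COPB1 and SEC24D the motif began 30, 28 and 26 bases before a transcription start, in COPB2 it spanned the start, and in SEC23A it lay 6 bases into the transcript. The SEC24D window belongs to a start inside the gene's span in the annotation. The E-box windows are shown for comparison, with CACGTG in capitals.
SEC62 (chr3:30792818-30792875, plus strand): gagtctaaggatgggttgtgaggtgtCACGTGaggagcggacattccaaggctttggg
SSR1 (chr13:37994249-37994306, minus strand): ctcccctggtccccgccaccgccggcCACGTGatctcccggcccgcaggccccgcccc
TMED10 (chr12:85374718-85374754, minus strand): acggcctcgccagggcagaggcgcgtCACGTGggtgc
SAR1A (chr10:61680252-61680284, plus strand): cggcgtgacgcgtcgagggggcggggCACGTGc

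The 5 genes with TGACGTGG had a median log2 ratio of MYC against WT of -0.56 in the VP and -0.28 in the DLP, and the 4 genes with CACGTG of -0.43 and -0.46. The 5 were not alike in the VP: KDELR3, SEC24D and COPB2 were at -0.94, -0.87 and -0.56, and SEC23A and COPB1 at -0.15 and -0.12. The median of the 40 genes with a window was -0.27 in both lobes.

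The signal recognition particle and its receptor were the group whose ratios in the VP lay nearest to those of all genes. Their 6 genes had a median VP ratio that was 0.00 relative to all genes, and -0.13 in the DLP. SRP9, which with SRP14 forms the Alu domain of the particle, stood at 38.2 FPKM in WT AP, 64.8 in WT DLP and 62.9 in WT VP, and at 33.7, 33.7 and 42.0 FPKM in MYC AP, DLP and VP. Its 3 MYC values were close together and below their WT counterparts, and its log2 ratio was -0.18, -0.92 and -0.57 in AP, DLP and VP. SRP14, its partner, did not follow it in the VP, where it was at 124.9 FPKM in WT and 124.5 in MYC, but was lower in MYC DLP (134.1 and 97.98 FPKM). SRP19 (chr18:34331121-34336599), a subunit that helps assemble the particle's RNA, had the highest VP ratio of the group, with 28.5, 39.6 and 36.4 FPKM in WT AP, DLP and VP and 32.9, 37.3 and 42.1 in MYC, a log2 ratio of 0.20, -0.09 and 0.20. SRP68 and SRP72, which bind each other, and SRPRB, the receptor's membrane subunit, differed by at most 1.08-fold between genotypes in each lobe. SRP68 and SRP72 were both highest in the VP, SRP68 with 33.0, 39.1 and 73.4 FPKM in the WT lobes and 34.1, 39.6 and 79.5 in MYC. SRP72 was at 31.0, 37.5 and 54.9 FPKM in WT and 33.5, 34.9 and 58.8 in MYC.

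The 5 genes of the Sec61 translocon were all lower in MYC DLP than in WT DLP, with log2 ratios between -0.51 and -0.18, and differed in direction in the VP. SEC61A1, the channel itself, stood at 62.8, 99.2 and 92.4 FPKM in WT AP, DLP and VP and at 64.8, 87.2 and 111.9 in MYC, so that its log2 ratio was 0.04, -0.18 and 0.27. SEC61B, a small subunit of the channel, was at 102.8, 224.4 and 196.9 FPKM in WT and 111.8, 196.9 and 210.2 in MYC. SEC62, an auxiliary subunit that serves the entry of short proteins after translation, was at 35.2, 43.2 and 66.6 FPKM in WT and 42.3, 30.2 and 41.9 in MYC, a log2 ratio of 0.26, -0.51 and -0.66. SEC63, which works with SEC62 and recruits the chaperone BiP, had a similar ratio of -0.50 in both DLP and VP, and SEC61G, a small channel subunit, one of -0.31 and -0.43. In the VP, SEC61A1 and SEC61B were therefore above WT as deposited, and the third channel subunit SEC61G was below it, like SEC62 and SEC63.

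The translocon-associated proteins, which sit beside the channel and help some proteins enter it, held the one member that was over 1.5-fold higher in MYC in any lobe (1 of 50 in the VP, against 16.7% of all genes, and none in the AP or the DLP, against 7.53% and 13.4%). SSR2 stood at 81.7, 120.6 and 92.4 FPKM in WT AP, DLP and VP and at 79.0, 138.8 and 174.1 in MYC. The MYC values climbed from AP to VP, and WT VP was close to WT AP. The log2 ratio was -0.05, 0.20 and 0.91, and the counting interval of the VP ratio, without a pseudocount, ran from 0.86 to 0.97. SSR4 in the VP was at 281.5 FPKM in WT and 338.5 in MYC (0.27). SSR1 and SSR3 of the same complex were at -0.09 and -0.24, with SSR3 at 105.0, 134.7 and 140.2 FPKM in WT and 120.6, 113.8 and 118.6 in MYC. The subunits of this one complex thus differed in direction in the VP, in FPKM as deposited.

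Signal peptidase held the lowest VP ratio of the 50 genes. Its catalytic subunit exists in 2 forms, SEC11A and SEC11C, and SEC11C (chr18:65800578-65817660) stood at 40.9, 98.5 and 186 FPKM in WT AP, DLP and VP and at 50.9, 47.1 and 80.0 in MYC. It was 4.46-fold higher in WT VP than in WT AP, the largest such difference of the 50 genes. The level in MYC was above WT in the AP and below it in both other lobes, with a log2 ratio of 0.31, -1.05 and -1.20 and counting intervals, without a pseudocount, of 0.19 to 0.44, -1.16 to -0.96 and -1.28 to -1.15. SEC11A stood at 32.1, 48.2 and 38.9 FPKM in WT and at 41.2, 48.1 and 49.6 in MYC, with a log2 ratio of 0.35, -0.01 and 0.34. The ratio of SEC11C to SEC11A, which library scaling does not affect, was 1.27, 2.04 and 4.77 in WT AP, DLP and VP and 1.23, 0.981 and 1.61 in MYC. The 2 forms were thus near the same balance in the AP of both mice and apart in the DLP and the VP. Of the accessory subunits, SPCS1 had a log2 ratio of 0.45, -0.16 and -0.17, SPCS2 of 0.02, -0.45 and -0.35, and SPCS3 of -0.05, -0.79 and -0.32.

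In oligosaccharyl transferase, RPN1, RPN2 and DDOST of the shared core were lower in MYC DLP and VP, in FPKM as deposited. The catalytic subunit STT3A was within 1.12-fold of WT, while the other catalytic subunit, STT3B, was also lower in the DLP. RPN1, RPN2 and DDOST, subunits found in both forms of the enzyme, had log2 ratios of -0.67, -0.42 and -0.39 in the DLP and -0.69, -0.43 and -0.42 in the VP, and lay between 0.03 and 0.09 in the AP. RPN1 stood at 38.1, 73.4 and 60.5 FPKM in WT AP, DLP and VP and at 38.8, 45.8 and 37.3 in MYC, so that MYC AP and MYC VP were near WT AP and the WT DLP and VP libraries stood above the rest. STT3A, the catalytic subunit that glycosylates proteins while they enter the ER, was at 20.9, 29.5 and 30.9 FPKM in WT and 23.3, 28.3 and 34.7 in MYC, a log2 ratio of 0.15, -0.06 and 0.16. STT3B, the catalytic subunit that acts after synthesis on sites that were skipped, was at 23.5, 33.8 and 22.8 FPKM in WT and 26.01, 24.7 and 23.3 in MYC. It was the member with the lowest WT VP level relative to the other WT lobes, and its log2 ratio was 0.14, -0.44 and 0.03 in AP, DLP and VP. The ratio of STT3A to STT3B was 0.891, 0.872 and 1.36 in the WT lobes and 0.897, 1.14 and 1.49 in MYC. DAD1, a small core subunit, was at 130.3, 206.0 and 220.2 FPKM in WT and 107.0, 171.7 and 196.6 in MYC, and OSTC, which belongs to the STT3A form, was at -0.03, -0.02 and -0.28 on the log2 ratio scale.

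**Figure D3:**
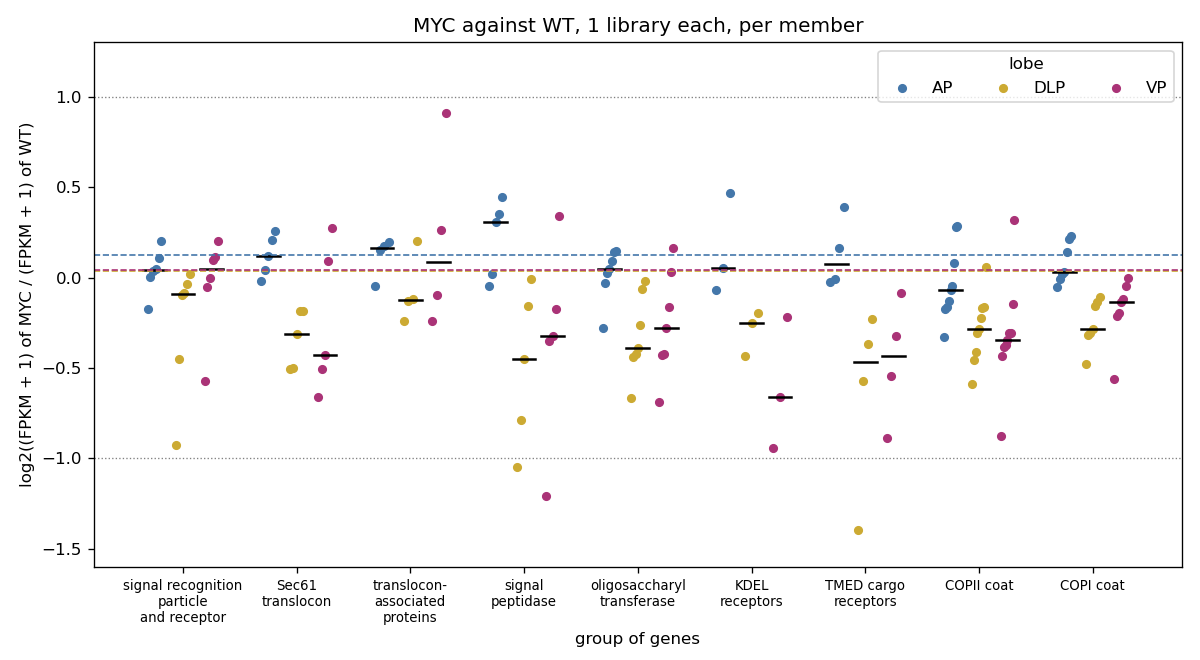
Log2 ratio of MYC to WT, with 1 FPKM added to both, for each of the 50 genes (points, 1 library against 1), by complex and lobe; black bars are the median of the complex, dashed lines the median of all genes compared in that lobe, and dotted lines the 2-fold limits. DLP points lie below the dashed line for 48 of 50 genes, VP points spread from -1.20 (SEC11C) to 0.91 (SSR2), and AP points lie between -0.33 and 0.47. Taken to the keratins KRT8 and KRT18, the VP median of the members moves from -0.23 to 0.03 and that of all genes from 0.04 to 0.30.

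The KDEL receptors, which bind escaped ER proteins in the Golgi and send them back, differed in the size of their change. KDELR3 stood at 7.38, 17.7 and 32.3 FPKM in WT AP, DLP and VP and at 10.6, 14.8 and 16.3 in MYC. Its VP to AP difference on the log2(FPKM + 1) scale was 1.99 in WT and 0.58 in MYC. The log2 ratio was 0.47, -0.25 and -0.94 in AP, DLP and VP, with a counting interval, without a pseudocount, of 0.30 to 0.75 in the AP and -1.10 to -0.86 in the VP. KDELR1, the most abundant of the 3, was at 69.5, 89.8 and 121.8 FPKM in WT and 72.2, 78.3 and 104.7 in MYC, a log2 ratio of 0.05, -0.20 and -0.22. KDELR2 was at 39.9, 51.4 and 43.4 FPKM in WT and 37.9, 37.8 and 27.1 in MYC, a log2 ratio of -0.07, -0.43 and -0.66. KDELR3, which has TGACGTGG upstream of its start, reached 0.265 of the KDELR1 level in WT VP and 0.156 in MYC VP, and 0.106 and 0.146 in the AP.

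TMED3 had the lowest ratio of the 50 genes in any lobe. The TMED (p24) proteins are carried in COPI and COPII vesicles and select cargo for them, and TMED3 stood at 102.8, 295.9 and 287.2 FPKM in WT AP, DLP and VP and at 134.8, 111.9 and 154.6 in MYC. The WT DLP and VP libraries stood well above the 4 others, and the DLP was the lowest of the MYC lobes. The log2 ratio was 0.39, -1.39 and -0.89, with counting intervals, without a pseudocount, of 0.33 to 0.45, -1.45 to -1.35 and -0.93 to -0.85. TMED2, at 136.9, 188.1 and 196.2 FPKM in WT and 136.0, 145.6 and 184.7 in MYC, had a ratio of -0.37 in the DLP and -0.09 in the VP. TMED10 was at 47.0, 70.3 and 69.2 FPKM in WT and between 46.2 and 47.1 in each MYC lobe, and TMED9 was at -0.23 in the DLP and -0.32 in the VP.

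**Figure D4:**
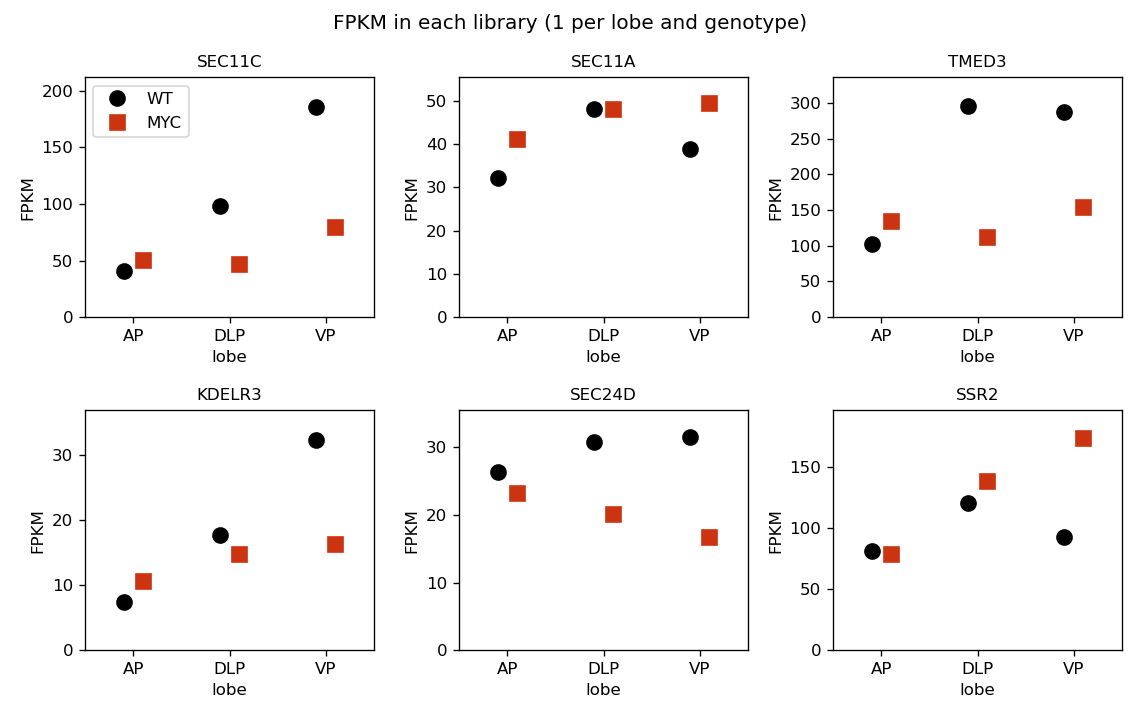
FPKM of SEC11C, SEC11A, TMED3, KDELR3, SEC24D and SSR2 in each library, by lobe, with WT as black circles and MYC as red squares (1 library per point, vertical axes from 0). SEC11C, TMED3 and KDELR3 stand higher in WT than in MYC in the DLP and the VP and lower in the AP, while SSR2 in the VP stands higher in MYC.

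Among the 9 COPII genes the paralogs of the cargo adaptor SEC24 went apart. SEC24D was at 26.4, 30.8 and 31.5 FPKM in WT AP, DLP and VP and at 23.2, 20.1 and 16.8 in MYC, a log2 ratio of -0.18, -0.59 and -0.87. SEC24C was at 25.3, 30.3 and 30.5 FPKM in WT and at 24.4, 31.6 and 38.3 in MYC, a ratio of -0.05, 0.06 and 0.32. The ratio of SEC24D to SEC24C stood near 1 in each WT lobe (1.04, 1.02 and 1.03) and at 0.951, 0.637 and 0.437 in MYC AP, DLP and VP, which is independent of the scaling of the libraries. SEC24A, at 15.8, 9.14 and 12.7 FPKM in WT and 12.4, 8.03 and 9.16 in MYC, was the one member that was highest in WT AP, and its ratio was -0.33, -0.17 and -0.43.

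The other COPII genes differed less in the VP than SEC24D. SEC23A, the inner-coat protein with TGACGTGG just inside its transcript, was at 11.1, 11.8 and 15.8 FPKM in WT and 13.7, 10.5 and 14.2 in MYC, and its paralog SEC23B was at 25.7, 30.1 and 35.0 FPKM in WT and 23.4, 25.6 and 26.8 in MYC. The ratio of SEC23B to SEC23A was 2.32, 2.54 and 2.21 in WT and 1.70, 2.45 and 1.89 in MYC. SEC13, which forms the outer cage with SEC31A, was at 29.1, 54.1 and 72.5 FPKM in WT and at 35.5, 43.5 and 55.4 in MYC, and SEC31A had log2 ratios of -0.16, -0.46 and -0.30. Of the GTPases that start the coat, SAR1A was even across the WT lobes (48.7, 51.8 and 48.5 FPKM) and at 46.4, 38.7 and 38.9 in MYC. SAR1B was at 22.7, 36.5 and 53.6 FPKM in WT and 24.0, 29.7 and 42.0 in MYC. The ratio of SAR1B to SAR1A was 0.465, 0.704 and 1.11 in the WT lobes and 0.518, 0.768 and 1.08 in MYC, so that it followed the lobe and was similar in both mice.

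The 7 COPI genes, subunits of 1 coat complex, each had WT levels in the order VP, DLP, AP (32 of the 50 genes and 26.3% of all genes), although COPE was at 112.6 and 112.0 FPKM in VP and DLP, within counting error. COPB2 was at 47.2, 75.3 and 128.7 FPKM in WT AP, DLP and VP and at 55.6, 60.3 and 87.0 in MYC, and had the lowest VP ratio of the coat (0.23, -0.32 and -0.56). COPA was at 64.2, 78.6 and 99.0 FPKM in WT and 64.0, 71.5 and 98.8 in MYC, a ratio of -0.01, -0.13 and -0.00. COPB1, COPE, COPG1, COPZ1 and ARCN1 had VP ratios between -0.21 and -0.04 and DLP ratios between -0.48 and -0.11. In MYC the order VP, DLP, AP was kept by 5 of the 7, and COPB1 and ARCN1 were lowest in the DLP. COPB2 and COPB1 are the COPI genes in whose windows TGACGTGG was found, and the VP ratio of COPB1 was -0.12.

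Other genes of the pathway were taken from a longer list written with earlier results of these data known. Of its 73 genes, 71 were compared, CAMLG was not matched, and DPM1 was below 1 FPKM on average. Their median ratio relative to all genes was -0.06 in the AP, -0.28 in the DLP and -0.06 in the VP, with 45, 59 and 45 of 71 genes below the median of all genes, and 55 of 71 were lowest in WT AP among the WT lobes (43.5% of all genes). In the DLP they stood about as far below all genes as the 50 members, and in the VP less far. Past 2-fold were USO1, which tethers ER vesicles to the Golgi, in the DLP (76.5 FPKM in WT and 35.8 in MYC), and TRAM2, a translocon protein, in the VP (2.26 and 0.575 FPKM). Each was the 1 gene of 71 at least 2-fold lower in its lobe, against 3.39% of all genes in the DLP and 5.95% in the VP. None of the 71 was 2-fold higher in MYC in any lobe, against the 2.05%, 6.46% and 6.88% of all genes in AP, DLP and VP.

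Factors known to raise the expression of secretory genes were compared beside them, 11 in all. Each of the 11 lay below the median of all genes in the AP and the DLP, and 10 did in the VP. CREB3L1, a membrane-bound factor of the ER that activates secretory genes when cleaved, stood at 10.1, 9.05 and 33.9 FPKM in WT AP, DLP and VP and at 10.5, 4.19 and 3.21 in MYC, a log2 ratio of 0.05, -0.95 and -3.05. CREB3L4 of the same family was at 0.673, 2.29 and 4.97 FPKM in WT and at 0.738, 1.44 and 1.21 in MYC, a ratio of -1.44 in the VP. These were the 2 of 11 factors past 2-fold, both lower in the VP, where 5.95% of all genes were. CREB3L2 was at 17.4, 19.8 and 23.1 FPKM in WT and 17.3, 16.7 and 15.8 in MYC. XBP1, the factor activated by the ER stress sensor ERN1, was at 104.9, 115.5 and 173.1 FPKM in WT and 89.3, 96.3 and 106.5 in MYC, a ratio of -0.23, -0.26 and -0.70. This gene-level value does not separate the spliced, active XBP1 message. BHLHA15, a factor of secretory cells, in the VP was at 55.02 FPKM in WT and 54.99 in MYC, and ATF6B was higher in MYC VP (22.8 and 39.4 FPKM). Whether these factors bear on the 50 genes was not tested.

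**Figure D5:**
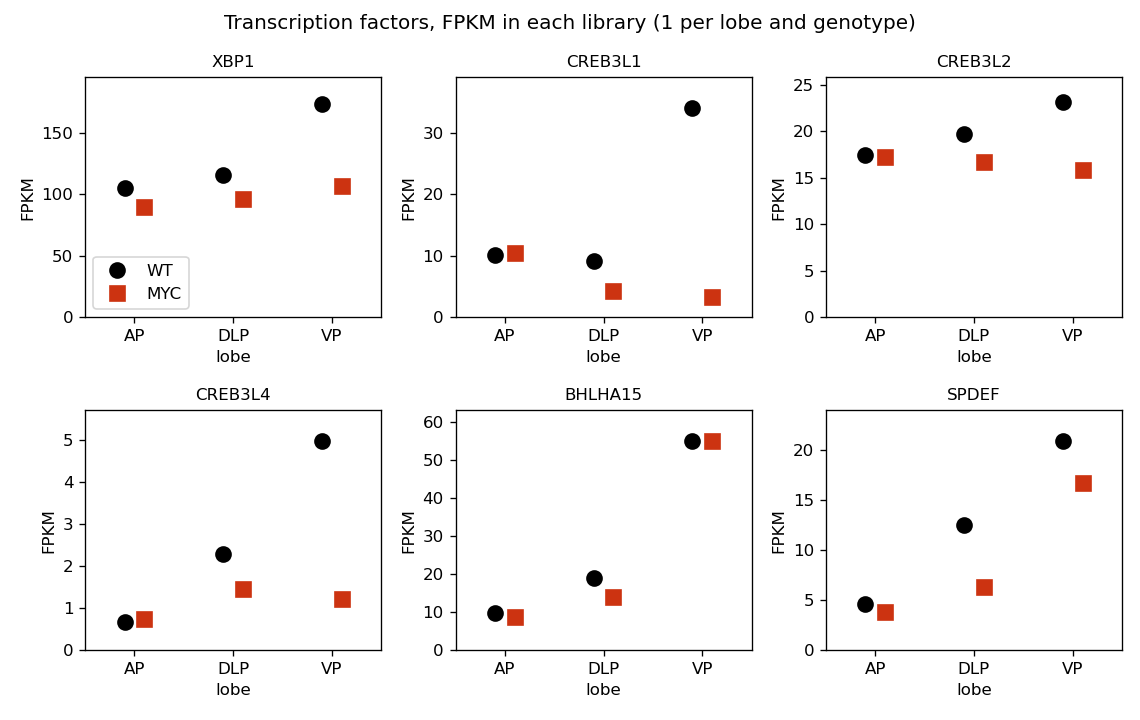
FPKM of the transcription factors XBP1, CREB3L1, CREB3L2, CREB3L4, BHLHA15 and SPDEF in each library, by lobe, with WT as black circles and MYC as red squares (1 library per point, vertical axes from 0). CREB3L1 in the VP is at 33.9 FPKM in WT and 3.21 in MYC, whereas BHLHA15 is at 55.02 and 54.99.

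Markers of plasma cells, which express the secretory pathway strongly, were at or near 0: JCHAIN, MZB1, TNFRSF17 and POU2AF1 did not exceed 0.65 FPKM in any library, and the sum of the list, which ran from 36.7 (WT VP) to 107 FPKM (MYC DLP), was nearly all SDC1, which epithelium also expresses. Summed basal cell markers were 1337, 918 and 407 FPKM in WT AP, DLP and VP and 859, 1286 and 278 in MYC, and summed luminal markers 1708, 1598 and 3475 in WT and 1477, 1876 and 2955 in MYC. In the AP the basal sum follows KRT14 (760.5 FPKM in WT and 333.1 in MYC), while KRT5 was at 108.9 and 109.2 FPKM and TRP63 at 5.79 and 19.2. The high luminal sum of WT VP comes from KRT8 and KRT18. Each of the 4 luminal, 4 basal and 5 hematopoietic markers was higher in MYC DLP than in WT DLP. Their median log2 ratios were 0.23, 0.79 and 1.65. Of the fibroblast markers 3 of 5 were higher there, of the endothelial markers 3 of 4, and of the smooth muscle markers 0 of 5. The part of these in the values of the 50 genes was not tested.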

How the data were processed

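The 3 lobes of 1 WT and 1 MYC mouse gave 6 poly(A)-selected, stranded libraries, sequenced as single-end reads, and genotype and lobe were read from the sample titles. The submitters' processing notes name bcl2fastq 2.18, STAR, Cufflinks and the build mm10. The authors quantified genes with Cufflinks, which gives FPKM, and deposited 1 table, which the methods call read counts. Its entries have decimals and their sums per library run from 374085 to 483143, so they were taken as FPKM, and count models were not used. FPKM share the mapped reads of a library, so that a few abundant genes can shift all others.

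A pseudocount of 1 FPKM was added before log2, genes averaging 1 FPKM or more were compared, and the threshold was 2-fold. Reads were estimated from the FPKM steps of single-exon genes longer than 600 bases at under 0.3 FPKM, with 200 bases taken from each length. Of these low values, between 42.2% and 51.9% came within 0.03 reads of a whole number, so the depths are estimates. Transcript lengths were those of GENCODE M1 (mm9), matched by symbol for all 50 genes, and coordinates those of RefSeq GRCm38.p6. Exact 95% Clopper-Pearson intervals of read ratios carry no pseudocount. The computation was tested on simulated data.

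The members and lists were chosen with earlier results of these data known. Genes were named as those past 2-fold in a lobe, the highest and lowest VP ratio of each complex, the 3 highest and 3 lowest WT VP levels against the other WT lobes, and paralogs. Of the regulators and other pathway genes, those past 2-fold, XBP1 and 3 CREB3L genes were named by rule. The remaining names were chosen with their values seen. Alternatives were a pseudocount of 0.1, no minimum or a minimum of 10 FPKM, 4 scalings, levels relative to Krt8 and Krt18, thresholds of 1.5-fold and 4-fold, and a margin of 1.25-fold. Computations ran in Python 3.11.15 (pandas 2.3.3, numpy 2.4.6 and scipy 1.17.1), and figures were drawn in matplotlib 3.10.9.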

Additional observations from a re-analysis of the deposited data

Results flagged for a closer look

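For 3 of the 50 genes the MYC library stood above WT in the AP and below WT in another lobe, with counting intervals that excluded no difference in both lobes and log2 ratios at least 1 apart. Without the intervals the rule finds the same number, 3 of 50, against 8.66% of all genes. The log2 ratio of TMED3 was lower in the DLP than in the AP by a difference of -1.783, and in the VP than in the AP by -1.277. For SEC11C the same differences were -1.357 (DLP less AP) and -1.513 (VP less AP), and for KDELR3 the VP to AP difference was -1.406. With 1 library per lobe and genotype, the difference between lobes was not tested. MYC AP also held the seminal vesicle genes at 522 FPKM in sum, and the smooth muscle markers had median log2 ratios of 0.76, -1.18 and -0.88 in AP, DLP and VP. The part of either in these values was not tested. Without these 3 genes the median ratio relative to all genes was -0.08 in the AP, -0.30 in the DLP and -0.26 in the VP.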

How the results depend on the processing

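Over 16 results and 132 alternatives, 109 values stayed near the reported one (counts within 1.5 times, medians within 0.1), 22 counts moved by over 1.5 times and 1 value reversed. Part of the 109 could not have moved. The lowest mean of a member was 11.19 FPKM (SEC24A), so the minimum changes no count that rests on the members only. A count of 0 at 2-fold also stays 0 at 4-fold. The members' median relative to all genes kept its sign and moved by less than 0.1 in the DLP and the VP under each pseudocount and minimum tried. It did so under the 4 scalings too, but a scaling shifts the members and all genes alike. It could move this value only through the pseudocount and the minimum, so its stability under the scalings is no test. In the AP it reversed to 0.046 with no minimum FPKM, where unexpressed genes bring the median of all genes to 0, and 33 instead of 19 genes then lay above that median. Scaling moved the all-gene median in the VP from 0.04 to -0.15 (equal sums of FPKM) and -0.18 (equal sums without the 20 highest genes), and in the AP from 0.13 to -0.00 (median of ratios). The count 2-fold lower in the VP was 1 as deposited, 2 with the median of ratios (7.45% of all genes), 2 with a trimmed mean (7.29%), 4 with equal sums (8.8%, or 9.58% without the 20 highest genes), 7 at 1.5-fold (14.9% of all genes) and 0 at 4-fold. In the DLP it was 2 as deposited, 6 at 1.5-fold (9.44% of all genes) and 0 at 4-fold, and the count higher in the VP was 1 at 1.5-fold (16.7%). Relative to Krt8 and Krt18, 4 genes were 2-fold lower in the DLP (6.03% of all genes) and 0 in the VP (3.28%), and 1 was 2-fold higher in the VP (11.8%). The DLP was the highest WT lobe for 17 genes as deposited and for 6 with the median of ratios or a trimmed mean. With either of these the VP was highest for 43 genes. The AP was highest for 2 with equal sums. With the margin over the next lobe that was required as an alternative, the highest lobe was the VP for 13, the DLP for 2 and the AP for 0. Shares of all genes were not computed for the highest lobe under these scalings or this margin. Whether such moves are particular to the members is therefore not known. Relative to the keratins, an alternative chosen after seeing the data for the WT lobes, it was the DLP for 49 (55.4% of all genes) and the VP for 0 (0.987%), and the AP was lowest for 2 (2.64%). The choice between these scales was not tested. No analysis paired by lobe was run. The 3 lobes of a genotype come from 1 mouse and are not replicates of it, and with 1 library per group no replicate could be left out. WT AP, with 25.4 M reads, gives the least precise values.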
